A study of Mus musculus with 6 samples.

Results

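The locus of miR-132 and miR-212 is a short stretch of mouse chromosome 11 that carries the hairpins of miR-212 and miR-132. Each hairpin can give a mature microRNA (miRNA) from its 5′ arm (5p) and from its 3′ arm (3p). The locus therefore has 4 mature products, which are 4 of the 1978 mature miRNAs that were listed. The rule that selects them uses their names and no measured value, but they were chosen with earlier results of these data known. Their counts were read in 2 libraries of RNA bound to AGO2, the Argonaute protein that holds a miRNA on its target RNA, prepared from the cortex at postnatal day 14. The animals came from a cross of VGLUT2-Cre with a conditional Spy3-AGO2 allele, whose tag couples AGO2 to SpyCatcher3 on a resin. VGLUT2 (Slc17a6) is a vesicular glutamate transporter, and the labels name pyramidal neurons as the cell type. All 6 libraries of the series (2 of miRNA and 2 of target RNA held by AGO2, and 2 of whole-lysate input) carry the tagged allele. The labels do not say whether replicates came from separate animals or how many animals entered a library, so the spread between the 2 libraries may be technical.

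The 2 miRNA libraries held 66854 and 75658 counts, and 412 miRNAs had a count in both. The counts were checked against marker miRNAs of neurons and of some other cells. The neuronal list does not separate pyramidal cells from other neurons, and no astrocyte markers were listed, so neither point was checked. The neuronal miRNAs miR-124-3p, miR-128-3p and miR-9-5p together took 25.2% ± 0.115 of the counts (SD, n = 2), and the oligodendrocyte, blood and microglial, and endothelial and mural marker lists took 0.0275% to 0.148%. Of the markers of other cells, the endothelial miR-126a-3p had 87 and 99 counts. In both libraries this was more than miR-212-3p and less than miR-132-5p had. In the blood and microglial list 4 of 6 members were counted in both libraries, among them the erythroid miR-451a (9 and 7 counts), the lymphoid miR-150-5p (6 and 5) and the haematopoietic miR-142a-3p (3 and 5), and the myeloid miR-223-3p was at 0 in both. How far cells without the tag contributed to the counts was not tested.

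In neurons the locus is known for its answer to activity. Calcium entry and neurotrophins activate the transcription factor CREB, which binds near the locus and raises 1 primary transcript that holds both hairpins. Drosha and Dicer cut the hairpins out, and AGO2 keeps 1 strand of each duplex and drops the other. miR-132-3p is the best-known product, linked to dendrite growth, spine number and cortical plasticity, and it acts by pairing its seed (bases 2 to 8) with messenger RNA.

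The mature sequences show which products can share targets. They are printed 5′ to 3′ as RefSeq gives them for GRCm38.p6, the assembly that mm10 holds, with the seed in capitals; the prefix mmu stands for mouse.
mmu-miR-132-3p: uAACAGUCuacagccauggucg
mmu-miR-212-3p: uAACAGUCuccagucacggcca
mmu-miR-132-5p: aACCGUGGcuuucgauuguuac
mmu-miR-212-5p: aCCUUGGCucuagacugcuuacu

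The 3p arms carry the same seed, AACAGUC, and share their first 9 bases. They are identical at 17 of 22 positions, and counted from the 5′ end the substitutions from miR-132-3p to miR-212-3p are A10C, C14U, U17C, U20C and G22A. Every difference between them therefore lies outside the seed. The 5p arms are identical at only 9 of the 22 positions compared without gaps, and their seeds differ. A mature sequence was found for 1679 of the 1978 listed miRNAs. Among these, miR-132-3p and miR-212-3p were the only ones with their seed, also when bases 2 to 7 alone were compared, and neither 5p arm shared its seed with another miRNA.

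The hairpins show where each arm sits. The arms are in capitals and the rest of the hairpin is in lower case.
Mir212: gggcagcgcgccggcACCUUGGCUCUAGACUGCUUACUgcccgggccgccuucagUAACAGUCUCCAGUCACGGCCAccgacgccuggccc
Mir132: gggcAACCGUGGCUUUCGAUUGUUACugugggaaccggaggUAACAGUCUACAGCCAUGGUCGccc

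Mir212 comes first on the plus strand, at chr11:75173388-75173478, and is 91 bases long. Mir132 follows at chr11:75173682-75173747 with 66 bases, after a gap of 203 bases. The loop between the mature arms measures 17 bases in Mir212 and 15 in Mir132. The nearest protein-coding genes are Ovca2, 2195 bases beyond Mir132, and Hic1, a transcriptional repressor gene, 3132 bases before Mir212. Both are annotated on the minus strand, opposite to the hairpins. The table of gene spans places both hairpins outside any protein-coding gene.

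**Figure D1:**
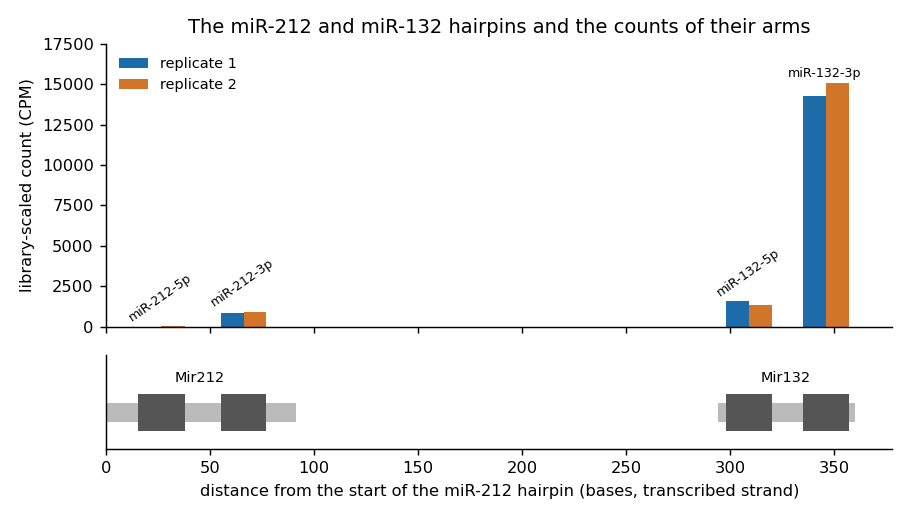
Library-scaled counts (CPM) of each mature arm in replicate 1 (left bar) and replicate 2 (right bar), drawn to scale above the Mir212 and Mir132 hairpins (light grey) and their mature arms (dark grey), in bases from the start of the miR-212 hairpin. miR-132-3p stands at 14270 and 15081 CPM, while the bars of miR-212-5p lie at 0 and 26.4.

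The first question was how much of AGO2's miRNA the locus supplied. Its 4 products together had 1117 counts in replicate 1 and 1314 in replicate 2, or 1.67% (exact 95% interval 1.58 to 1.77) and 1.74% (1.64 to 1.83) of all counts. The mean was 1.70% ± 0.0466 (SD, n = 2). The intervals of the libraries overlap. In these libraries a smaller number of cells that hold a miRNA and less of it per cell cannot be told apart. Intervals cover counting error only, and duplicate reads were kept, so the true error is larger.

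miR-132-3p supplied most of it. It had 954 counts (1.43%, exact 95% interval 1.34 to 1.52) in replicate 1 and 1141 counts (1.51%, 1.42 to 1.60) in replicate 2, and ranked 12 of all miRNAs in each. Of the counts of the locus it took 85.4% and 86.8%. The gap of its mean to either neighbour was larger than their SDs, but its exact intervals overlap with those of both neighbours in each library. let-7f-5p stood next above with 1.56% ± 0.0470 and miR-29c-3p next below with 1.37% ± 0.0145, against 1.47% ± 0.0574 for miR-132-3p (SD, n = 2 each). let-7a-5p (1.69%) and miR-29a-3p (2.02%) above it, and miR-376a-3p (1.37%) and let-7b-5p (1.11%) below it, kept the same order relative to miR-132-3p in both libraries.

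miR-132-5p, the other arm of the same hairpin, was the next most counted product. It had 105 counts (0.157%, exact 95% interval 0.128 to 0.190) in replicate 1 and 101 counts (0.133%, 0.109 to 0.162) in replicate 2, a mean of 0.145% ± 0.0167 (SD, n = 2). It ranked 93 and 103. Its place among its neighbours was not resolved. miR-23a-3p, miR-345-5p and miR-21a-5p above it, and miR-365-3p, miR-323-3p and miR-301a-3p below it, all lay within the larger SD of the pair.

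miR-212-3p, which carries the seed of miR-132-3p, came after it. It had 58 counts (0.0868%, exact 95% interval 0.0659 to 0.112) in replicate 1 and 70 counts (0.0925%, 0.0721 to 0.117) in replicate 2, a mean of 0.0896% ± 0.00408 (SD, n = 2), and its mean ranked 135. Its neighbours miR-100-5p, miR-27a-3p and miR-7b-5p above, and miR-98-5p, miR-330-3p and miR-539-5p below, were within the larger SD of each pair. The minor arm of miR-132 was thus counted more often than the major arm of miR-212 in both libraries. The gap of their means was larger than either SD, and their exact intervals were apart in replicate 1 and overlapped in replicate 2.

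miR-212-5p was barely detected. It had 0 counts in replicate 1, where a count of 0 allows a share of up to 0.00449%, and 2 counts in replicate 2 (0.00264%, exact 95% interval 0.000320 to 0.00955). It shared its mean share with 25 other miRNAs, so its place in the order has no meaning. It was not detectable in replicate 1 at this depth.

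**Figure D2:**
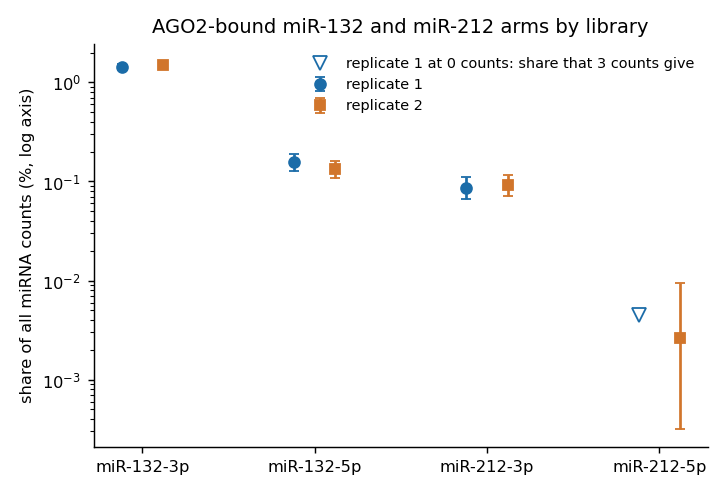
Share of all miRNA counts (percent, log axis) of the 4 products in replicate 1 (circles) and replicate 2 (squares), with exact 95% intervals; the open triangle marks the 0 counts of miR-212-5p in replicate 1 at the share that 3 counts would give. The libraries overlap for each product, and the products span from 1.51% down to 0.00264%.

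The libraries were then compared with each other for each product, which compares libraries and not conditions. An exact binomial test of the 310 miRNAs that had at least 10 counts in all called 4 of them after Benjamini-Hochberg adjustment, or 1.29%. Of the 3 products of the locus that were tested, 0 were called. With 1.29% called over all tested miRNAs, this does not set the locus apart. miR-132-3p in replicate 2 was 1.06 times its share in replicate 1 (exact 95% interval 0.969 to 1.15, exact adjusted p = 0.626). miR-132-5p was 0.850 times (0.640 to 1.13, exact adjusted p = 0.655) and miR-212-3p 1.07 times (0.742 to 1.54, exact adjusted p = 0.955). miR-212-5p had too few counts for the test.

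The second question was which arm of each hairpin AGO2 held. Both hairpins were counted mainly from the 3p arm. In miR-132 the 3p arm took 954 of 1059 counts in replicate 1 (90.1%, exact 95% interval 88.1 to 91.8) and 1141 of 1242 in replicate 2 (91.9%, 90.2 to 93.3), a mean of 91.0% ± 1.26 (SD, n = 2). That is 9.09 times (7.42 to 11.2) and 11.3 times (9.21 to 13.99) the count of the 5p arm. In miR-212 the 3p arm took all 58 counts in replicate 1 (exact 95% interval 93.8 to 100) and 70 of 72 in replicate 2 (97.2%, 90.3 to 99.7). With 0 counts of miR-212-5p in replicate 1, no ratio could be measured there. Taking 3 counts per library as the limit of a count of 0, the miR-212-3p count was 19.3-fold that limit. The exact 95% lower limit of the ratio in replicate 1 was 15.2-fold. In replicate 2 the miR-212-3p count was 35 times that of its 5p arm, with an exact 95% interval of 9.33 to 295.

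The difference in arm usage between the hairpins passed the test in 1 library only. At the arm ratio of miR-132, the miR-212-3p counts would go with 6.38 counts of miR-212-5p in replicate 1 and 6.20 in replicate 2, where 0 and 2 were found. Fisher's exact test of arm by hairpin gave p = 0.00459 in replicate 1 (exact adjusted p = 0.0276 over the 6 Fisher tests run on the locus) and p = 0.115 in replicate 2 (exact adjusted p = 0.286). The point values ran the same way in both libraries. The arm share itself was not found to differ between the libraries, either for miR-132 (Fisher's exact p = 0.143, exact adjusted p = 0.286) or for miR-212 (p = 0.502, exact adjusted p = 0.602). Duplicate reads make these p-values too small.

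Set among other hairpins, miR-132 kept a well-counted minor arm. Of 174 hairpins with both arms listed and at least 20 counts, 82 had more 3p than 5p counts. The minor arm took 8.95% of the counts of miR-132 with the libraries summed, against a median of 2.65% over these hairpins, and 118 of them had a lower minor arm share. In miR-212 the minor arm took 1.54%, and 76 hairpins lay lower. As a share of all counts, miR-132-5p ranked 7 of the 174 minor arms, after miR-9-3p, miR-434-5p, miR-369-3p, miR-136-3p, miR-154-3p and let-7d-3p. By 3p share the hairpins next to miR-132 were miR-300, miR-148b and miR-376a (91.7%) above and miR-666, miR-665 and miR-107 (89.9%) below. Next to miR-212 lay miR-652, miR-667 and miR-676 (98.5%) above and miR-377 (98.4%), miR-29c and miR-370 below. Differences between miRNAs in adapter ligation, which also enter arm ratios, were not tested.

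**Figure D3:**
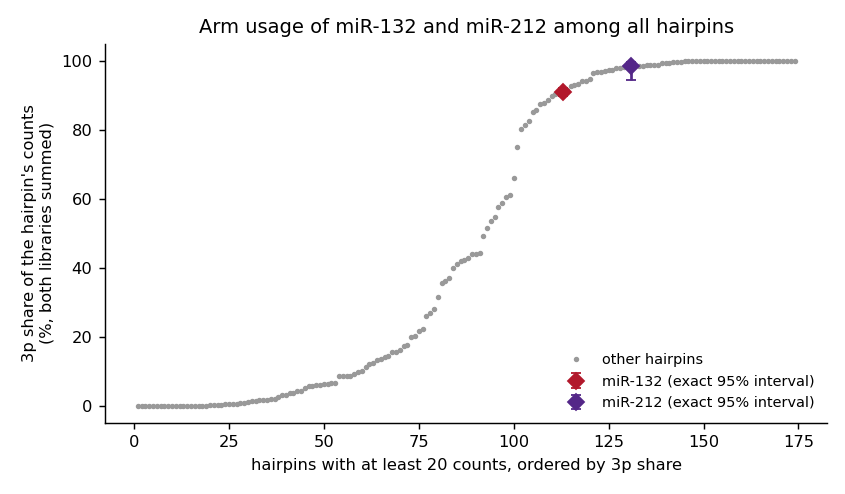
Share of a hairpin's counts that came from its 3p arm (percent, both libraries summed) for the 174 hairpins with at least 20 counts, ordered from lowest to highest; diamonds with exact 95% intervals mark miR-132 (91.0%) and miR-212 (98.5%). Both lie on the 3p side, and miR-132 lies where the minor arm is still well counted.

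The arms of both hairpins also have features of sequence in common, given here as description. Both 3p arms start with U and both 5p arms with A. miRNAs starting with U were 40.9% of those with a sequence and took 70.4% ± 0.324 of their counts, while those starting with A were 25.6% and took 22.1% ± 0.223 (SD, n = 2). Of 20 hairpins with a 3p arm starting with U and a 5p arm starting with A, miR-132 and miR-212 included, 15 had most counts on the 3p arm. Over all 174 hairpins with at least 20 counts, 82 did. In the lowest-energy fold of each hairpin (-37.2 kcal/mol for Mir132 and -41.5 kcal/mol for Mir212), the first 4 bases of each 3p arm formed 3 A-U pairs and 1 G-C pair. The first 4 bases of miR-132-5p formed 2 G-C pairs and 1 A-U pair with 1 base unpaired. Those of miR-212-5p formed 2 G-C pairs with 2 bases unpaired. Whether these features set the arm usage was not tested.

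The third question was how the hairpins of 1 transcript compared in AGO2. miR-132 exceeded miR-212 on both arms. On the 3p arms the counts were 954 against 58 in replicate 1 and 1141 against 70 in replicate 2, which is 16.4 times (exact 95% interval 12.6 to 21.8) and 16.3 times (12.8 to 21.1). How reads that match more than 1 miRNA were counted is not given in the sources used here, which bears on this ratio because the 3p arms share their first 9 bases. The ratio was nearly the same in both libraries (Fisher's exact p = 1, exact adjusted p = 1). With both arms summed it was 18.3 times (14.01 to 24.2) and 17.3 times (13.6 to 22.2), or 4.14 ± 0.0563 as a log2 ratio (SD, n = 2, 0.5 added to each count). On the 5p arms miR-212 had 0 counts in replicate 1, so no ratio could be measured there. The 105 counts of miR-132-5p were 35-fold the limit of 3 counts (exact 95% lower limit of the ratio 28.0-fold). In replicate 2 the ratio of the 5p arms was 50.5 times (101 against 2 counts, exact 95% interval 13.6 to 423). Fisher's exact test called no difference of the 5p ratio between the libraries (p = 0.244, exact adjusted p = 0.366).

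Because the 3p arms have the same seed, the ratio also says which product stood for the seed family. The family had 1012 and 1211 counts, or 1.56% ± 0.0614 of all counts (SD, n = 2). miR-132-3p was 94.3% of it in replicate 1 (exact 95% interval 92.7 to 95.6) and 94.2% in replicate 2 (92.8 to 95.5). The remainder was miR-212-3p.

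Unequal counts from neighbouring hairpins were common. Among 52 pairs of neighbouring hairpins on 1 strand, at most 10 kb apart, each with 1 locus and all listed arms matched, and at least 20 counts on either side, the median ratio was 3.88-fold. The pair of miR-212 and miR-132 ranked 15 with 17.6-fold, from the mean log2 ratio of the 2 libraries. The pairs next above it were Mir323/Mir758 (28.1-fold), Mir299a/Mir380 and Mir410/Mir3072, and those next below were Mir770/Mir673 (17.0-fold), Mir341/Mir1188 and Mir1197/Mir323. All of these, and 38 of the 52 pairs, lie on chromosome 12, where the large imprinted Dlk1-Dio3 cluster is. Of the 14 pairs elsewhere in the genome, miR-212 and miR-132 had the largest ratio, and ranked 2 of 16 with up to 50 kb allowed, after Mir876/Mir873a, where Mir876 was at 0 in both libraries. Among the 14 were Mir25/Mir93 (7.10-fold), Mir191/Mir425 (5.25-fold) and Mir497/Mir195a (2.48-fold), which were named after their values were seen. Whether each pair shares a primary transcript was not tested.

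**Figure D4:**
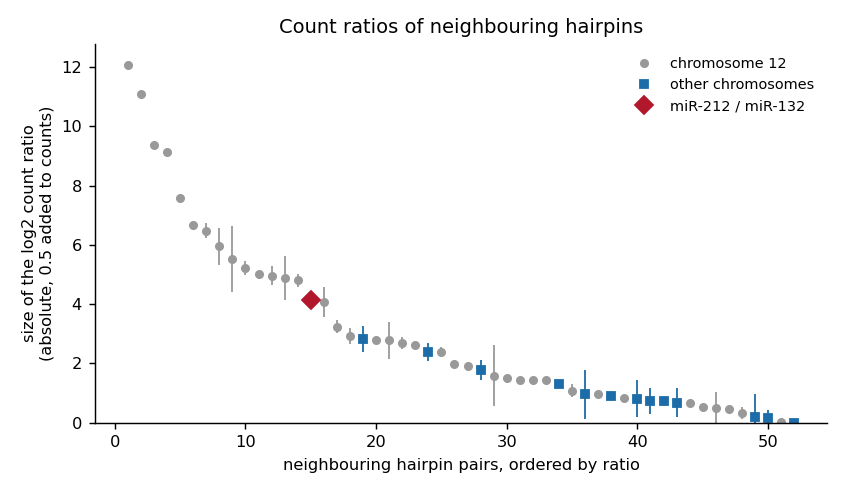
Size of the log2 ratio of counts between neighbouring hairpins (mean of the 2 libraries, 0.5 added to each count) for 52 pairs ordered from largest to smallest; vertical lines join the values of the 2 libraries, and reach 0 where these differ in sign. The pair of miR-212 and miR-132 (diamond, 4.14) lies above the 13 other pairs outside chromosome 12.

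miR-132-3p was then set beside 12 other miRNAs listed for regulation by neuronal activity or by light. None of these had a higher share. The list came from general knowledge and was chosen with earlier results of these data known, so this order holds within the list only. miR-138-5p, a dendritic miRNA that restrains spine size, had 0.872% and 1.01%, and miR-137-3p, a miRNA of neuronal maturation, had 0.696% and 0.687%. The mean of miR-132-3p was 1.56 times that of miR-138-5p, and the gap was larger than either SD. miR-191-5p had 154 and 146 counts (0.212% ± 0.0264), more than miR-132-5p, and the gap was larger than either SD (n = 2 each).

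The rest of the list lay below miR-212-3p. miR-134-5p, which acts on dendritic spines, had 16 and 38 counts, and the circadian miR-219a-5p, also a marker of oligodendrocytes, had 16 and 16. miR-188-5p had 18 and 10, miR-146a-5p 4 and 14, and miR-485-5p 10 and 6 counts. miR-96-5p, regulated by light in the retina, had 0 and 3 counts, miR-184-3p had 1 and 0, and miR-182-5p and miR-183-5p were at 0 in both. All 12 together took 1.95% ± 0.0777 of the counts (SD, n = 2), beside 1.70% for the locus. No stimulated or silenced samples were compared, so these are levels at 1 age and not responses to activity.

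**Figure D5:**
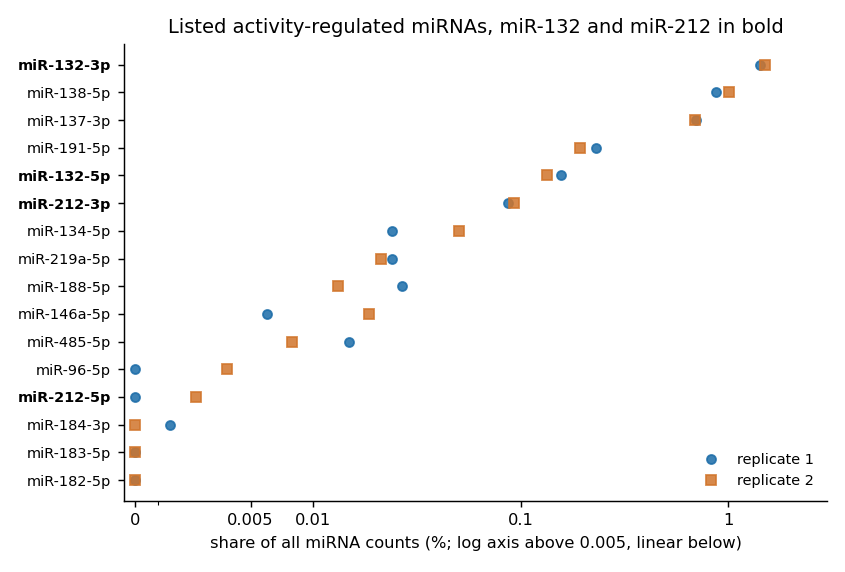
Share of all miRNA counts (percent, log axis above 0.005 and linear below) in replicate 1 (circles) and replicate 2 (squares) for the 12 listed activity-regulated miRNAs and the 4 products of the locus, ordered by mean. miR-132-3p is highest at 1.43% and 1.51%, and miR-212-5p lies near the bottom with 0 and 2 counts.

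The last question was whether the deposited AGO2 target peaks touched the locus or the genes around it in this pathway. None of the 2197 peaks lay in Mir132, in Mir212 or within 50 kb of them, and 0 lay in any annotated miRNA gene. The nearest peak lay 93057 bases beyond Mir132, at chr11:75266805-75266855 in Rtn4rl1. Peaks are 1 list for the series with no values per library, so they have no replicate check.

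Among 22 genes listed as reported targets of the shared 3p seed, 2 had at least 1 peak (9.09%, exact 95% interval 1.12 to 29.2), against 4.30% of all protein-coding genes, which lies inside that interval. Arhgap32, a GTPase-activating protein gene known as a target through which miR-132 promotes dendrite growth, had 1 peak. It lies on the plus strand, the strand of the gene, at chr9:32264518-32264580, and ends 3863 bases before the end of the gene span. The peaks were not searched for the seed match, so they are not assigned to miR-132 or miR-212.

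Genes upstream and downstream of CREB carried peaks more widely. Of 38 listed CREB pathway and immediate early genes, 15 had a peak (39.5%, exact 95% interval 24.0 to 56.6), beside 4.30% of protein-coding genes. The list holds genes that are abundant in cortical neurons, and expression was not measured here, so nothing particular to the pathway can be read from the share. Receptors and kinases that signal to CREB among them were Grin2b (7 peaks) and Grin2a (4), subunits of the NMDA receptor, Grin1 (2), another subunit, and the calmodulin kinase genes Camk2a (4) and Camk2b (1). Protein kinase A was represented by Prkacb and Prkar1a with 2 peaks each. Of the transcription factors tied to activity, Mef2c had 9 and Nr4a1 2. Peaks were credited without regard to strand: 1 of the 2 Nr4a1 peaks is antisense to the gene, and 1 of the 4 Grin2a peaks lies on the opposite strand to the other 3. A further 5, named after their values were seen, had 1 peak each: Camk4, a kinase that phosphorylates CREB, Ntrk2, the BDNF receptor gene, the CREB coactivator gene Crebbp, and the transcription factor genes Egr1 and Mef2a. Creb1 itself had 0.

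The miRNA pathway that makes and uses these products had no peak. Of 13 listed genes of miRNA processing and Argonaute function, among them Drosha, Dicer1 and Ago2, 0 had a peak (exact 95% upper limit 24.7%), an interval that includes the 4.30% of all protein-coding genes.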

How the data were processed

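The miRNA values are read counts per mature miRNA as deposited by the authors, not normalized; the name given to them says that duplicates were kept. The deposited peak score is 0 for all 2197 peaks and was not used. Build mm10 and, without role or order, DESeq2 1.36.0, deepTools 3.1.3, Bowtie2 2.4.2, STAR 2.5.2a, cutadapt 2.10 and UMI-tools stand in the submitters' processing notes; the step that made each file is not given in the sources used here.

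Shares are counts over the library total of 66854 or 75658, with exact (Clopper-Pearson) 95% intervals (scipy 1.17.1) and mean and SD over the 2 libraries. Libraries were compared by an exact binomial test over all miRNAs with at least 10 counts, and arms and hairpins by 6 two-sided Fisher's exact tests, each family adjusted by Benjamini-Hochberg at 0.05. The binomial test was tested on simulated data. Hairpins were folded with RNAfold 2.7.2. Alternatives used edgeR 4.0.16 TMM factors and DESeq2 1.42.0 size factors. A peak was credited to each gene span (RefSeq, GRCm38.p6) that held its midpoint, but not to the host gene of a small RNA.

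The members and the lists, which come from general knowledge, were chosen with earlier results of these data known. The text names the 4 products, the 3 miRNAs, hairpins or hairpin pairs on either side of them, all 12 listed activity-regulated miRNAs, and up to 10 listed genes per list with a peak; further names, the minor arm ranks, first bases and folds were added after the values were seen. 1 listed gene that the rule names is not reported here.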

Additional observations from a re-analysis of the deposited data

How the results depend on the processing

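Leaving miR-128-3p out of the denominator raised the share of miR-132-3p to 1.69%, of miR-132-5p to 0.167%, of miR-212-3p to 0.103% and of the 4 products together to 1.96%, more than the SD between libraries. The log2 ratio of the 3p arms of miR-132 over miR-212, 4.02 with 0.5 added, was 4.03 with nothing added and 4.01 with 1 added, a small move beyond a very small SD. With at least 2 peaks required per gene, 1 of the reported targets and 9 of the CREB pathway genes remained, Nr4a1 among them through an antisense peak. TMM and DESeq2 library sizes, pooled counts, other count minimums, other limits on the distance between hairpins and other rules for crediting peaks left every other value within the SD between libraries, within 1.5 times, or on the same side of the test's threshold. For the arm ratio of miR-212 and the ratio of the 5p arms, the alternative with nothing added could not be run because of the 0 in replicate 1. miR-212-5p ranged from 0% to 0.00264% when either library was left out, and the log2 arm ratio of miR-212 from 4.82 to 6.87, so both rest on 2 counts. No paired analysis was possible because only 1 of the 3 groups has values per library. The depth limits what can be said of any product below about 0.00449% of the counts, the share of 3 counts in replicate 1. This includes miR-212-5p.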
